A study of Mus musculus with 4 samples.

Results

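The receptors for the monoamine transmitters serotonin, dopamine and noradrenaline were described through 10 genes: Htr1a, Htr2a, Htr2c, Htr4 and Htr7 (serotonin), Drd1 and Drd5 (dopamine), and Adra1a, Adra1b and Adrb1 (noradrenaline). The genes were taken by symbol from the gene list of each library, and all 10 of 10 were found among its 32285 genes. They were measured by single-nucleus RNA sequencing in the hippocampus of female C57BL/6J mice, a method in which nuclei are freed from frozen tissue and each captured RNA molecule carries a unique molecular identifier (UMI). The 4 groups, with 1 library each, were APPNL-G-F mice with exercise, APPNL-G-F mice without exercise, wild-type (WT) mice with exercise and WT mice without exercise. APPNL-G-F mice carry a humanised and mutated amyloid-beta sequence knocked into their own App gene, so that App itself drives it in every cell that uses the gene, and they form amyloid plaques. All mice were 8 weeks old at the start, and the protocol ran for 10 weeks. The groups are those of the sample titles, which mark 2 samples as without exercise, although the protocol text of all 4 samples describes a running wheel. The number of animals behind a library is not given in the labels.

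Monoamine receptors other than the Htr3 channels are G protein-coupled. Htr4, Htr7, Drd1, Drd5 and Adrb1 couple to Gs and raise cyclic AMP, Htr2a, Htr2c, Adra1a and Adra1b couple to Gq and activate phospholipase C, and Htr1a couples to Gi/o and opens inward-rectifier potassium channels. The hippocampus holds no monoamine cell bodies: serotonin reaches it from the raphe nuclei, noradrenaline from the locus coeruleus, and dopamine from the midbrain and the locus coeruleus. A gene's transcript in a nucleus therefore marks the receiving cell, not the releasing one.

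With 1 library per group no pair of groups could be tested, and no p-value is given. Every difference below is between libraries, and its interval is a 95% interval for counting error only, which leaves out animals and library preparation. After filtering, 8745, 9278, 6508 and 10213 nuclei were kept, in the order in which the groups were named above, from libraries of between 64158446 and 91676884 UMIs. Between 20 and 42 cell barcodes were shared by any 2 libraries, at most 0.486% of either. The library of APPNL-G-F mice with exercise stood apart. Of its dentate granule nuclei, 94.0% lay in a cluster to which it gave 2563 of 2836 nuclei. Of its oligodendrocyte nuclei, 98.4% lay in a cluster to which it gave 1382 of 1545. In the other libraries the largest granule cluster was another, with 66.3% of the class in APPNL-G-F mice without exercise (cluster 13), 49.2% in WT mice with exercise and 51.3% in WT mice without (both cluster 19). For oligodendrocytes the shares were 93.6% (cluster 27, which held few nuclei of other libraries), 86.5% and 84.6% (both cluster 17). Malat1, a nuclear RNA, took 3.34% of the kept UMIs in APPNL-G-F mice with exercise, 9.54% in APPNL-G-F mice without exercise, 6.04% in WT mice with exercise and 3.21% in WT mice without exercise. Clusters were named from marker genes, and a class name means that its nuclei are like that type. The hippocampal markers placed granule, CA1 and CA3 nuclei in every library, and a class with markers of deep cortical layers was also present. Receptor values are given over 15 classes as counts per 1000000 UMIs of the class (CPM). Some sub-clusters within a class showed markers of another class, among them granule markers in sub-clusters of CA3 and deep-layer neurons and oligodendrocyte markers in one of each inhibitory class; the part of such nuclei in the values below was not tested. The highest doublet scores were left out beforehand, between 5.50% and 8.98% of nuclei per library.

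Over all kept nuclei the 10 genes differed widely in how many UMIs they gave. Htr4 gave 51906 UMIs and Htr2c 19174, followed by Adra1a with 6863, Htr7 with 4199, Htr2a with 3880 and Adrb1 with 3395. Adra1b gave 905, Drd5 495, Drd1 477 and Htr1a 429. The first 5 of these genes are long, between 68.7 and 235 kb from start to end, and Adra1b spans 127 kb. Htr1a, Drd1, Drd5 and Adrb1 span 4.48, 4.52, 3.15 and 10.9 kb. Per kilobase of gene the order of the mean level was different: Adrb1 stood at 1.23 CPM per kb and Htr4 at 1.18, then Drd5 at 0.608, Drd1 at 0.423, Htr1a at 0.373, Htr2c at 0.325, Htr2a at 0.219, Adra1a at 0.197, Htr7 at 0.168 and Adra1b at 0.0279. Levels of different genes are compared on that scale only, as a description. It divides by the whole span of the gene, and whether introns were counted is not given. Exons cover 4.91 kb of Htr4 and 3.38 kb of Adrb1, so the order depends on the length used.

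On GRCm38, Htr2c lies at X:146962513-147197277 on the plus strand, with up to 7 exons, and snoRNA and microRNA genes on the same strand lie within it. Htr2a lies at 14:74640840-74709494 on the plus strand with 3 exons, and Htr7 at 19:35958734-36057507 on the minus strand with up to 5 exons. Adra1a lies at 14:66635251-66771168, Adra1b at 11:43774606-43901210 and Adrb1 at 19:56722199-56733113. Htr1a (13:105443639-105448122) and Drd5 (5:38319367-38322518) have a single exon, and Drd1 lies at 13:54051183-54055705. Drd5 overlaps Gm26560 on the other strand, and whether strand was used in counting is not given, so the reads of the pair cannot be told apart.

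The promoter stretches of Htr2c, Htr2a and Htr7 are shown because these 3 serotonin receptor genes were highest in different sub-clusters of CA3 nuclei, described further on. They come from RefSeq on GRCm38.p6, end before the first annotated base of the gene, run 5' to 3' on the gene's strand, and carry CpG pairs in capitals.
Htr2c, X:146962263-146962512, 250 bases: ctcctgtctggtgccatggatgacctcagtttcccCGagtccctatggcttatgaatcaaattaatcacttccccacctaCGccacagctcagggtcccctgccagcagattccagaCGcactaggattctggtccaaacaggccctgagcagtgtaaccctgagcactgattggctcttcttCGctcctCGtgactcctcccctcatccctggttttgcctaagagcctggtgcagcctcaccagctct
Htr2a, 14:74640624-74640839, 216 bases: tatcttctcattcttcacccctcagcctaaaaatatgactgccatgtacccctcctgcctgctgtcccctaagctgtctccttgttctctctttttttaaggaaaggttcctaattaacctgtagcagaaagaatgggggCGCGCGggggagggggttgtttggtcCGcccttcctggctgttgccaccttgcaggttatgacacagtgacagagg
Htr7, 19:36057508-36057610, 103 bases: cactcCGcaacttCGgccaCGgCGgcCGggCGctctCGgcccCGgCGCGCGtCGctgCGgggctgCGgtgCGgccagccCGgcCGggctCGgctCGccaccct
The Htr7 stretch holds 19 CpG pairs in 103 bases, the Htr2c stretch 5 in 250 and the Htr2a stretch 4 in 216. Over the full 250 bases before the RefSeq start, GC content was 82.0% for Htr7, 55.6% for Htr2c and 52.8% for Htr2a, with a median of 52.4% over 32851 promoters. RefSeq promoter entries matched 8 of the 10 genes. Read on both strands, the full cyclic AMP response element TGACGTCA was in none of them (1.55% of all promoters hold it), its shorter core TGACG was in those of Htr7 and Adrb1 (17.8% of all), and the GC box GGGCGG was in an entry of Htr1a, Htr2a, Drd1, Drd5, Adra1b and Adrb1 (32.7% of all). A match is a run of letters and not a shown binding site.

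**Figure D1:**
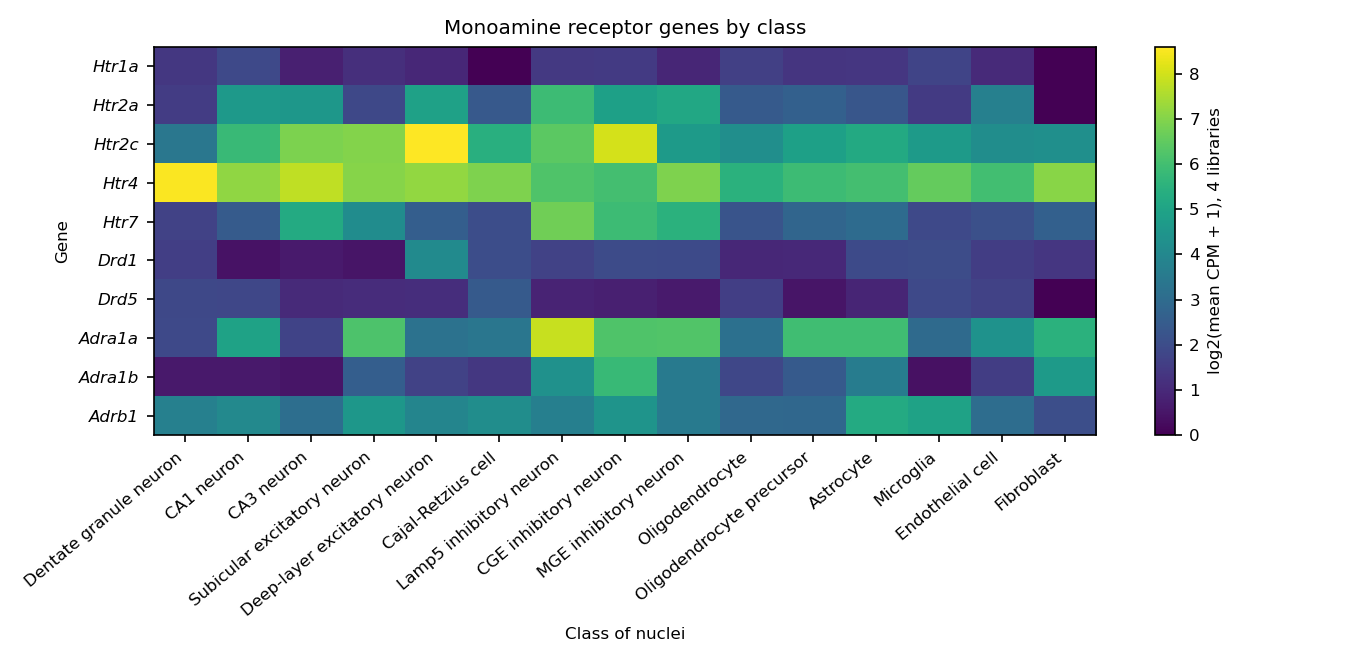
Mean level of the 10 receptor genes (rows) in 15 classes of nuclei (columns), as log2(mean CPM + 1) over the 4 libraries. Htr4 is brightest in dentate granule neurons, Htr2c in deep-layer and CGE inhibitory neurons, and Htr7, Htr2a and Adra1a in Lamp5 inhibitory neurons.

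Htr4, a Gs-coupled serotonin receptor gene at 18:62324204-62496577 on GRCm38, was highest in dentate granule neurons. Its level there was 401 CPM in APPNL-G-F mice with exercise, 327 in APPNL-G-F mice without exercise, 409 in WT mice with exercise and 331 in WT mice without exercise, with a mean of 367 ± 43.9 (SD, n = 4 libraries). The exercise libraries were the higher of each pair, and no library of the class overlapped any of the next class. CA3 neurons came second at 219 ± 14.1 CPM, with 200, 233, 226 and 218 in the same order, and did not overlap the third. Deep-layer (146 ± 31.7), CA1 (143 ± 12.9) and subicular excitatory neurons (130 ± 17.8) overlapped each other, as did MGE inhibitory neurons at 120 ± 12.7. An Htr4 UMI was seen in 78.7% of granule nuclei (median depth 6009 UMIs), against 9.005% of oligodendrocytes (median 1841 UMIs), a class in which little Htr4 would be looked for. With nuclei thinned to 1500 UMIs, and those with fewer left out, the shares were 39.5% and 7.34%. Fibroblasts gave 132 ± 60.7 CPM from only 79 UMIs.

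Htr7, the other Gs-coupled serotonin receptor, was a gene of inhibitory neurons and CA3. In Lamp5 inhibitory neurons, a class that includes neurogliaform cells, it stood at 91.0 CPM in APPNL-G-F mice with exercise, 109 in APPNL-G-F mice without exercise, 89.0 in WT mice with exercise and 130 in WT mice without exercise (mean 105 ± 19.2). All 4 values were above every value of the next class, CGE inhibitory neurons (derived from the caudal ganglionic eminence), at 57.8 ± 11.0. MGE inhibitory neurons (medial ganglionic eminence) at 43.3 ± 2.58 and CA3 neurons at 36.7 ± 7.62 followed, with overlapping libraries. CA1 neurons at 4.46 ± 0.387 and granule neurons at 2.26 ± 1.14 were lower than CA3 in every library.

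Htr2c, a Gq-coupled receptor whose RNA is known to be edited, was highest in deep-layer excitatory neurons. Its level there was 311 CPM in APPNL-G-F mice with exercise, 476 in APPNL-G-F mice without exercise, 329 in WT mice with exercise and 421 in WT mice without exercise (384 ± 78.1). CGE inhibitory neurons came next at 156, 302, 267 and 319 CPM (261 ± 73.6), below the deep-layer class in 4 of 4 libraries although the ranges overlapped. Subicular neurons (128 ± 12.9) and CA3 neurons (117 ± 55.4) overlapped each other. CA3 neurons had the widest relative spread of these classes, with 77.6 CPM in APPNL-G-F mice with exercise, 186 in APPNL-G-F mice without exercise, 67.8 in WT mice with exercise and 138 in WT mice without exercise. Lamp5 neurons gave 84.8 ± 18.6, CA1 neurons 55.6 ± 11.4, MGE neurons 24.9 ± 8.98 and granule neurons 9.66 ± 3.80, the lowest of the 15 classes. An Htr2c UMI was found in 46.9% of deep-layer nuclei (median 7272 UMIs) and 4.13% of oligodendrocytes (median 1841 UMIs), or 27.4% and 3.16% after thinning to 1500 UMIs. The granule share, 1.32% after thinning, was below that of oligodendrocytes, so by this share the granule level could not be told from background.

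**Figure D2:**
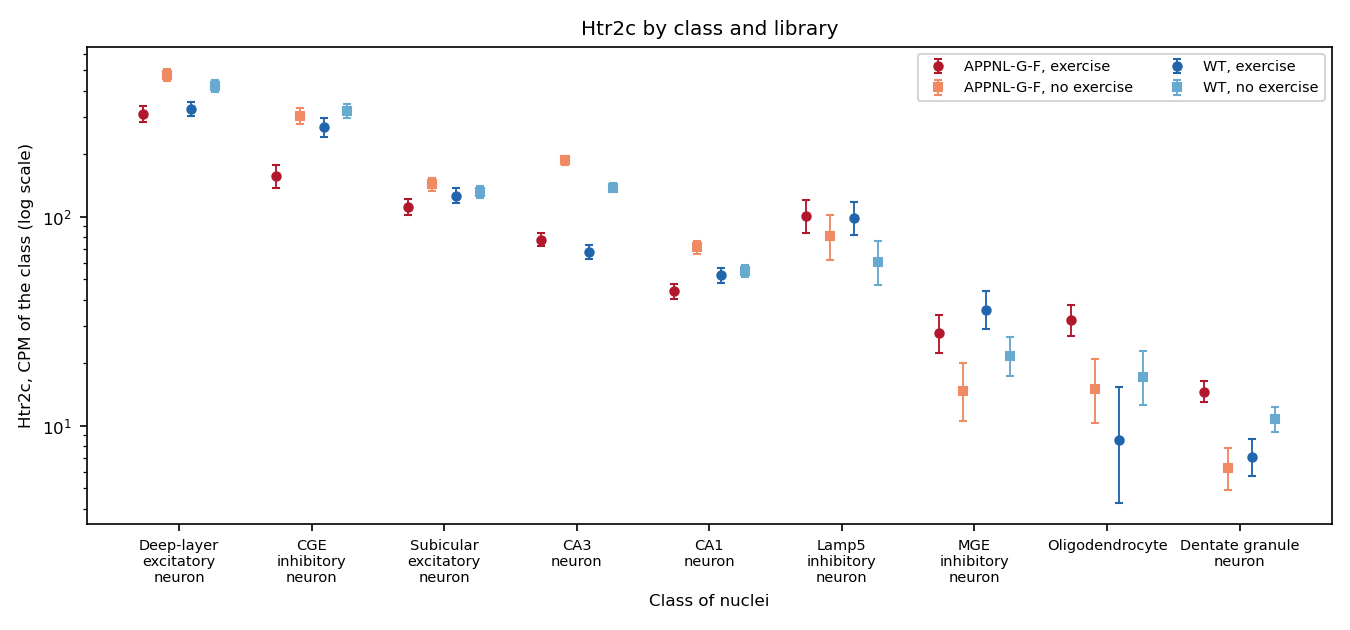
Htr2c level (CPM, log axis) in 9 classes and 4 libraries, with 95% Poisson intervals for counting error. In CA3 neurons both exercise libraries lie below both libraries without exercise, and in MGE inhibitory neurons the order is turned round.

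Htr2a, the Gq-coupled target of psychedelic drugs, was highest in Lamp5 inhibitory neurons at 61.2 CPM in APPNL-G-F mice with exercise, 52.8 in APPNL-G-F mice without exercise, 46.5 in WT mice with exercise and 71.7 in WT mice without exercise (58.0 ± 10.9). None of these overlapped MGE inhibitory neurons at 34.7 ± 4.61. The MGE, deep-layer (29.5 ± 12.8), CGE (28.3 ± 6.47), CA1 (24.3 ± 3.95) and CA3 classes (22.2 ± 3.62) overlapped from each to the next. CA3 in turn lay above endothelial cells (12.4 ± 3.44) in every library, with no overlap, and granule neurons were at 1.90 ± 0.923.

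Htr1a, the Gi-coupled receptor, gave few UMIs. It was highest in CA1 neurons with 2.35 CPM in APPNL-G-F mice with exercise, 3.46 in APPNL-G-F mice without exercise, 2.27 in WT mice with exercise and 2.81 in WT mice without exercise (2.72 ± 0.546, from 144 UMIs). Granule neurons were at 1.63 ± 0.530 and CA3 neurons at 0.687 ± 0.304, below CA1 in all 4 libraries. Oligodendrocytes, at 2.07 ± 1.51 from 19 UMIs, overlapped CA1. After thinning to 1500 UMIs, 0.428% of CA1 nuclei (median 8745 UMIs) and 0.330% of oligodendrocytes (median 1841 UMIs) had an Htr1a UMI. Before thinning the shares were 2.48% and 0.375%. By the thinned share CA1 was close to oligodendrocytes, whose own level rests on 19 UMIs.

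Drd1, the main dopamine receptor of the Gs family, was highest in deep-layer excitatory neurons. It had 8.00 CPM there in APPNL-G-F mice with exercise, 31.8 in APPNL-G-F mice without exercise, 6.30 in WT mice with exercise and 19.3 in WT mice without exercise (16.3 ± 11.8, from 120 UMIs). Both exercise libraries were below both libraries without exercise. A Drd1 UMI was seen in 10.5% of deep-layer nuclei (median 7272 UMIs) and 0.158% of oligodendrocytes (median 1841 UMIs), or 2.04% and 0.165% after thinning. Granule neurons were at 2.02 ± 0.803 and CA1 neurons at 0.325 ± 0.164. Drd5, the other Gs-coupled dopamine receptor, was low. Granule neurons at 2.60 ± 0.133, CA1 neurons at 2.54 ± 0.636 and oligodendrocytes at 2.01 ± 1.72 overlapped. Means were lower in CA3 (1.04 ± 0.480), Lamp5 (0.812 ± 0.634), CGE (0.690 ± 0.633) and MGE neurons (0.526 ± 0.386). After thinning, 0.347% of granule nuclei, 0.375% of CA1 nuclei and 0.385% of oligodendrocytes had a Drd5 UMI. By this share granule and CA1 nuclei were not above oligodendrocytes.

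Adra1a, a Gq-coupled noradrenaline receptor, had the sharpest class pattern of the 3 noradrenaline receptor genes. In Lamp5 inhibitory neurons it stood at 252 CPM in APPNL-G-F mice with exercise, 218 in APPNL-G-F mice without exercise, 201 in WT mice with exercise and 258 in WT mice without exercise (232 ± 27.4), a mean 3.08 times that of the next class with no overlap. MGE inhibitory (75.4 ± 8.85), CGE inhibitory (73.1 ± 15.5) and subicular neurons (71.2 ± 6.85) overlapped. Oligodendrocyte precursors at 61.1 ± 1.23 and astrocytes at 60.5 ± 13.5, the first glial classes in the order, also overlapped each other. CA1 neurons were at 29.7 ± 3.94, whereas granule (2.68 ± 2.18) and CA3 neurons (2.28 ± 1.36) were the lowest 2 classes.

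Adra1b, its paralogue, was highest in CGE inhibitory neurons at 61.6 CPM in APPNL-G-F mice with exercise, 52.0 in APPNL-G-F mice without exercise, 41.7 in WT mice with exercise and 64.0 in WT mice without exercise (54.8 ± 10.1). Fibroblasts, on 18 UMIs, gave 24.5 ± 20.9. Lamp5 neurons followed at 19.4 ± 3.69 and MGE neurons at 10.4 ± 1.63, below CGE in every library, and CA1, CA3 and granule neurons were each near 0.5 CPM or lower. So the paralogues had their maxima in different inhibitory classes, Adra1a in Lamp5 and Adra1b in CGE neurons, in each of the 4 libraries. Adrb1, a Gs-coupled beta receptor, was spread over many classes. Its highest mean, 36.7 ± 20.1 CPM in astrocytes, rested on 78 UMIs (31.2, 66.0, 20.02 and 29.7 in the order above) and overlapped microglia (29.8 ± 33.7, 42 UMIs) and subicular neurons (22.1 ± 3.80, 473 UMIs). CGE neurons at 20.6 ± 2.09, CA1 neurons at 15.5 ± 4.49, deep-layer neurons at 13.9 ± 4.26 and granule neurons at 12.4 ± 1.74 came close behind.

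**Figure D3:**
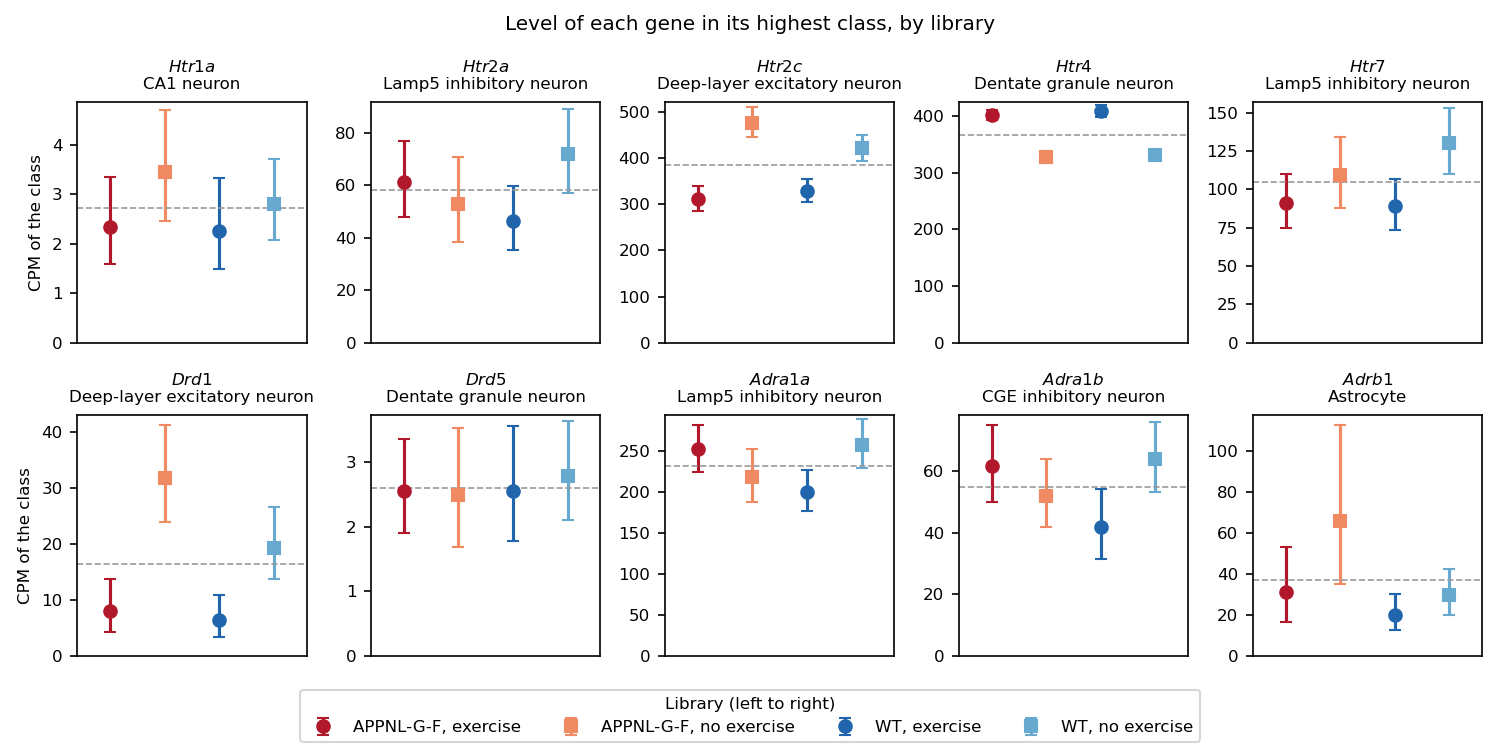
Level (CPM, linear axes from 0) of each receptor gene in its highest class with at least 20 UMIs, by library, with 95% Poisson intervals for counting error and the mean over the 4 libraries as a dashed line. Htr4 in granule neurons is higher, and Htr2c and Drd1 in deep-layer neurons are lower, in the exercise library of each genotype.

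Across the 15 classes, the genes whose mean log level followed each receptor most closely among 11468 candidates were, as a description, Syt7 for Htr4 (Pearson r = 0.93), L3mbtl4 for Htr7 (r = 0.93), Camk4 for Htr2c (r = 0.92), Ttl for Htr2a (r = 0.82), Tox2 for Adra1a (r = 0.82), Abat for Adra1b (r = 0.86) and Nudt3 for Adrb1 (r = 0.87). For the 3 genes with the fewest UMIs the closest were Dus4l for Htr1a (r = 0.83), Smyd3 for Drd1 (r = 0.81) and 4933406C10Rik for Drd5 (r = 0.87). Among the receptors themselves the highest values were 0.78 between Adra1a and Adra1b and 0.65 between Htr2a and Htr7. The classes share 4 libraries and differ in depth.

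Within the CA3 class Htr2c, Htr2a and Htr7 were highest in different sub-clusters. The class was cut into 12 sub-clusters without any monoamine receptor gene among the genes used, and these are called by number and leading genes. Htr2c stood at 506 CPM in sub-cluster 3 (led by St18 and Gabrg3) and 672 in sub-cluster 9 (Plce1 and Efna5), against 2.98 in sub-cluster 8 (Tmtc2 and Epha3). Its share of nuclei with a UMI was 81.5% in sub-cluster 3 (median depth 10632 UMIs) and 3.31% in sub-cluster 8 (median 12742 UMIs), so the sub-cluster with more Htr2c was the shallower one. Htr2a was at 164 CPM in sub-cluster 10 (Kcnmb2, Pde11a and Cd44), where Htr2c was at 18.6, and at most 34.5 in any other sub-cluster. By library that Htr2a level was 160 CPM in APPNL-G-F mice with exercise, 136 in APPNL-G-F mice without exercise, 161 in WT mice with exercise and 186 in WT mice without exercise. Htr7 was highest at 86.8 CPM in sub-cluster 7, which carried 7 of 8 CA2 markers (69.9, 88.9, 109 and 82.7 in the same order). Htr4 was high in sub-clusters 9 (461 CPM), 3 (419) and 11 (401), and low in 8 (38.5). So Htr2c and Htr4 were both high in sub-clusters 3 and 9 and both lowest in 8.

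**Figure D4:**
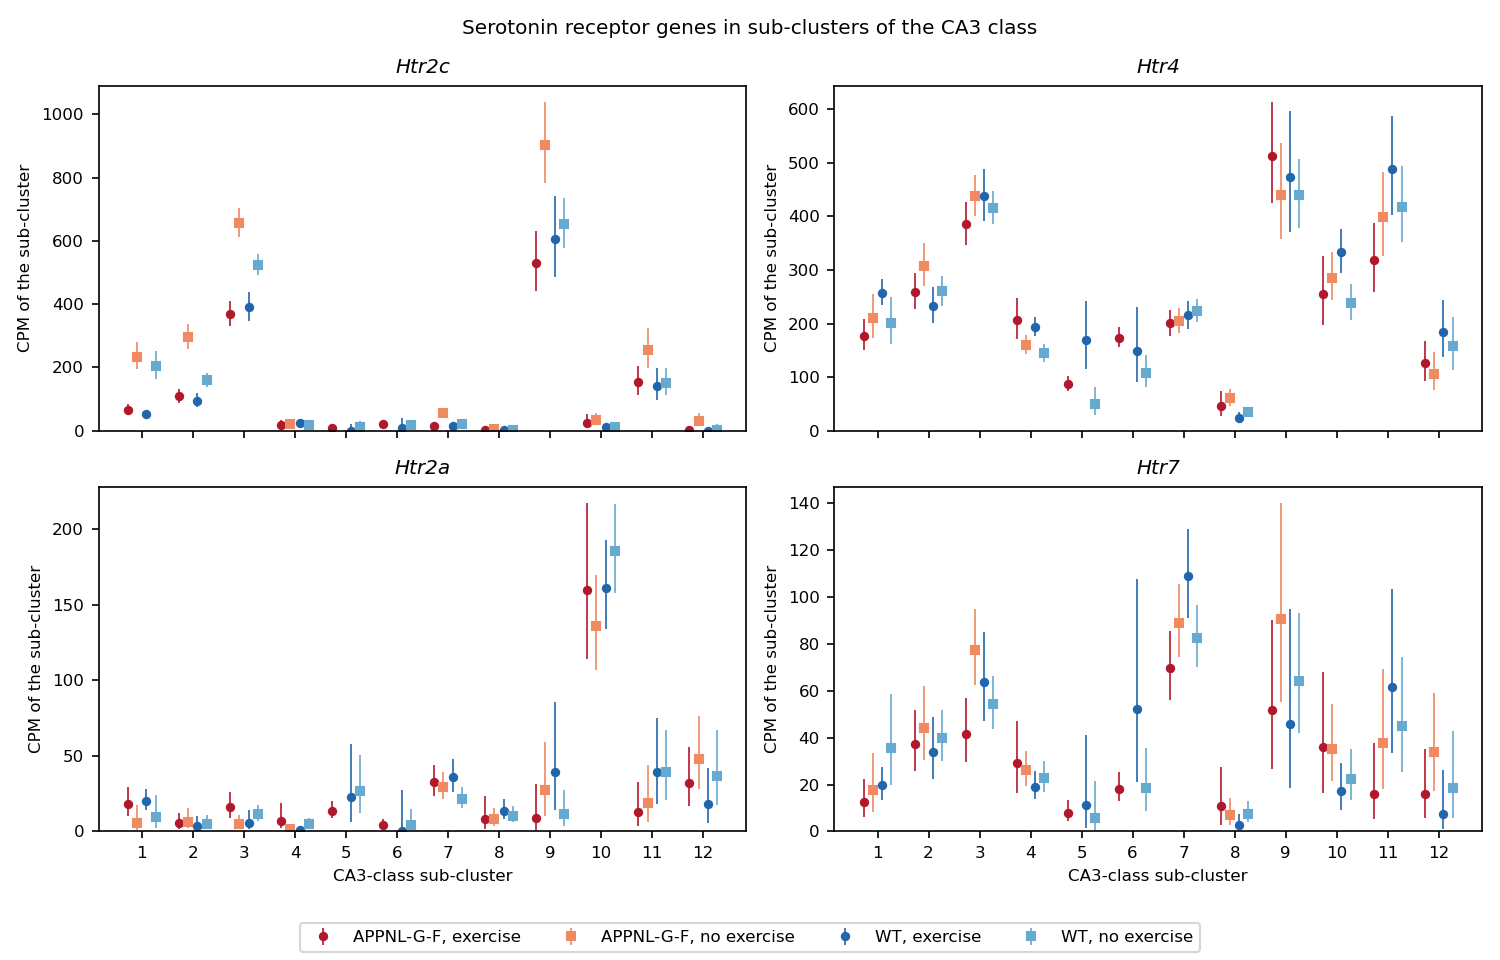
Levels (CPM, linear axes from 0) of Htr2c, Htr4, Htr2a and Htr7 in the 12 sub-clusters of the CA3 class, by library, with 95% Poisson intervals. Htr2c peaks in sub-clusters 3 and 9, Htr2a in 10 and Htr7 in 7, the one with CA2 markers; sub-clusters 5 and 6 hold no nuclei of APPNL-G-F mice without exercise.

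Other classes were divided too. In CA1, Adra1a was at 135 CPM in sub-cluster 5 (Col6a1, Cdh13 and Hs3st2; 140, 97.1, 148 and 150 by library) against 1.10 in sub-cluster 6 (Egfl6 and Lhfp), and Htr2c was also highest in sub-cluster 5, at 159. That CA1 sub-cluster carried 3 of 8 subicular markers, and the subicular class stood at 71.2 CPM for Adra1a and 128 for Htr2c. The part of subicular-like nuclei in these CA1 values was not tested. In the deep-layer class Htr2c reached 1157 CPM in sub-cluster 1 (Npsr1 and Itga9), whose nuclei had an Htr2c UMI in 97.4% of cases. Drd1 was highest in sub-cluster 8 of that class (Pappa2, Col19a1 and Ccn2) at 68.0 CPM from 46 UMIs, as was Htr2a at 143. Adra1b stood at 164 CPM in CGE sub-cluster 6, led by the neuropeptide gene Vip, with 179, 165, 164 and 152 by library.

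The comparison of exercise with none in APPNL-G-F mice had the most receptor differences past 1.5-fold of the 4 comparisons, as it had over all genes. In granule, CA1, CA3 and inhibitory neurons (Lamp5, CGE and MGE together), 30 pairs of receptor gene and class had at least 50 UMIs over both libraries. Of these, 12 (40%) passed a 1.5-fold difference, 6 higher and 6 lower with exercise, where 41.8% of all gene and class pairs did, 24.8% higher and 17.0% lower. The receptors' share was thus near the background. No pair of Adra1b in granule, CA1 and CA3 neurons reached 50 UMIs.

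Htr2c, a gene also known for its high level in the choroid plexus, was lower with exercise in 3 of these 4 classes. In CA3 neurons it had 77.6 CPM (766 UMIs) in APPNL-G-F mice with exercise against 186 (1559 UMIs) in APPNL-G-F mice without, and the log2 ratio was -1.26 (-1.39 to -1.14). In CA1 neurons it had 44.0 against 71.3 CPM, a log2 ratio of -0.70 (-0.85 to -0.54), and in inhibitory neurons 74.3 against 118 CPM, or -0.66 (-0.84 to -0.48). Within the inhibitory class Htr2c was at -0.96 (-1.18 to -0.73) in CGE neurons. It went the other way in MGE neurons, at 27.6 against 14.6 CPM (0.91, 0.37 to 1.49), and was at 0.32 (-0.13 to 0.77) in Lamp5 neurons. At equal shares of the sub-clusters with at least 10 nuclei in every library these were 0.68 (9 of 10 sub-clusters) and -0.18 (3 of 8). In deep-layer neurons, outside the 4 classes, Htr2c was at -0.62 (-0.78 to -0.46). Htr7 in CA3 neurons was at 28.3 against 46.3 CPM (log2 -0.71, -0.94 to -0.49). It was under 1.5-fold over the 10 of 12 sub-clusters with at least 10 nuclei in every library. The ratio there was -0.31 at each library's own shares and -0.39 at equal shares. The sub-clusters left out held 37.6% of the CA3 UMIs of APPNL-G-F mice with exercise. Adrb1 was at 12.98 against 21.4 CPM in CA1 neurons (log2 -0.72) and at 10.5 against 18.8 in inhibitory neurons (log2 -0.84). In CA1 the 6 of 9 sub-clusters with at least 10 nuclei in every library gave -0.56 at own and -0.46 at equal shares. They leave out 53.8% of the CA1 UMIs of APPNL-G-F mice with exercise and 29.6% of those without. Drd1 in deep-layer neurons was at 8.00 (13 UMIs) against 31.8 CPM (56 UMIs), which is a ratio of -1.99 on the log2 scale (-2.98 to -1.10).

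In granule neurons 5 of the 9 receptors measured were past 1.5-fold higher with exercise, beside 22.4% of all genes. All 5 were at low levels. Measured here means at least 50 UMIs over both libraries, which left out Adra1b alone. Low-level genes can pass this limit through the library in which they are high, as Adra1a did with 118 UMIs with exercise. The count of 5 and the median given below therefore describe only the genes that passed. Adra1a was at 5.90 CPM (118 UMIs) with exercise against 1.04 (13 UMIs) without in APPNL-G-F mice, and its log2 ratio was 2.50 (1.67 to 3.45). Htr7 was at 3.80 against 1.04 CPM (log2 1.87), Htr2a at 3.00 against 1.04 (1.53), Drd1 at 3.00 against 1.28 (1.23) and Htr2c at 14.5 against 6.25 (1.22). Htr1a, at -0.53, and Drd5, at 0.04, which were also low, did not pass 1.5-fold. At 1500 UMIs per nucleus the share of granule nuclei with a UMI was below that of oligodendrocytes for Adra1a, Htr2a, Htr7 and Htr2c. The shares were 0.426% and 1.37% for Adra1a, 0.347% and 0.714% for Htr2a, and 0.426% and 0.467% for Htr7. By this share their granule levels, here and in the comparisons below, could not be told from background. Whether oligodendrocytes hold these transcripts themselves was not tested. For Drd1 the granule share was above that of oligodendrocytes (0.317% and 0.165%). The sixth higher pair was Adra1a in CA3 neurons at 3.85 against 1.79 CPM (log2 1.10), which turned to -0.17 with no doublets left out and to -0.35 at 1500 UMIs per nucleus. The median of the 9 receptors measured in granule neurons was 1.22, beside 0.09 over all genes; in CA1, CA3 and inhibitory neurons it was -0.08, -0.24 and -0.00, beside 0.15, 0.19 and 0.13. The granule median was 0.24 at 1500 UMIs per nucleus and 0.29 over genes with at least 200 UMIs. Markers of other neurons moved with these values. The 7 CA1 markers summed to 106 CPM in granule nuclei of APPNL-G-F mice with exercise, 40.6 in APPNL-G-F mice without exercise, 41.2 in WT mice with exercise and 52.4 in WT mice without exercise, and the 8 subicular markers to 261, 118, 142 and 165; no marker of either list was at 0. A CA1 marker UMI was seen in 41.9%, 14.7%, 19.0% and 23.5% of granule nuclei. In granule nuclei without a UMI of markers of other neurons, a subset chosen after seeing the data, Adra1a had 6.53 CPM (12 UMIs) against 1.20 (6 UMIs), so that its log2 ratio was 2.44 (0.92 to 4.14), and Htr2c 13.6 against 5.80, or 1.23 (0.40 to 2.05). These were 308 nuclei (11.3% of the class) with exercise and 1091 (42.8%) without, and the largest granule cluster of the first library is not that of the second. Htr4 in granule neurons differed by 0.29 (0.24 to 0.35), under the 1.5-fold line.

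Exercise with none in WT mice gave fewer differences. Of 29 pairs, 6 (20.7%) passed 1.5-fold, 1 higher and 5 lower with exercise, beside 11.0% of all pairs, 2.01% higher and 9.01% lower. Htr2c in CA3 neurons was again lower, with 67.8 CPM (673 UMIs) in WT mice with exercise against 138 (1644 UMIs) in WT mice without, a log2 ratio of -1.02 (-1.15 to -0.89). In CA1 and inhibitory neurons it differed little, at -0.07 (-0.22 to 0.08) and 0.01 (-0.14 to 0.17). It was higher in MGE neurons (0.73, 0.29 to 1.16) and Lamp5 neurons (0.70, 0.27 to 1.15). At equal shares of the sub-clusters with at least 10 nuclei in every library these were 0.28 and 0.37, both under 1.5-fold. At own shares they were 0.69 and 0.17. MGE sub-cluster 5, with 3 of 8 subicular markers, held 15.9%, 7.22%, 19.9% and 8.29% of MGE nuclei, in the order of the groups. Its part was not tested. The other 5 pairs were Htr2c (log2 -0.60), Htr2a (-0.90), Htr1a (-1.01) and Drd1 (0.69) in granule neurons and Drd5 in CA1 neurons (-0.85). The Htr1a and Drd1 values rested on 13 against 37 UMIs and on 32 against 28 UMIs. In granule nuclei without markers of other neurons Htr2a was at -0.15 and Drd1 at 0.34, both under 1.5-fold. In deep-layer neurons Drd1 was at 6.30 (13 UMIs) against 19.3 CPM (38 UMIs), which is a ratio of -1.62 on the log2 scale (-2.65 to -0.68). Htr2a there was at 17.0 against 47.3 CPM, or -1.48 (-2.08 to -0.90). The 6 of 10 sub-clusters used for equal shares leave out sub-cluster 8, where Htr2a was highest. Over them its ratio was -0.98 at own and -0.83 at equal shares, on 18 against 34 UMIs. Htr4 in granule neurons was higher by 0.30 (0.25 to 0.36). Median ratios in the order granule, CA1, CA3, inhibitory were -0.12, -0.10, 0.01 and -0.10, beside -0.12, -0.17, -0.17 and -0.13 over all genes.

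The lower Htr2c of CA3 neurons with exercise was also seen within sub-clusters. In sub-cluster 3 it was at 369 CPM in APPNL-G-F mice with exercise against 658 in APPNL-G-F mice without (log2 -0.83, -1.02 to -0.65), and at 392 in WT mice with exercise against 524 in WT mice without (-0.42, -0.62 to -0.23). In sub-cluster 2 the ratios were -1.45 and -0.74. Sub-cluster 3 held 11.8% of CA3 nuclei in APPNL-G-F mice with exercise, 16.7% in APPNL-G-F mice without exercise, 9.37% in WT mice with exercise and 15.3% in WT mice without exercise. Sub-clusters 5 and 6, in which Htr2c was low, held 20.2% and 22.8% of them in APPNL-G-F mice with exercise and none in APPNL-G-F mice without. In a comparison chosen after seeing the data, each sub-cluster with at least 10 nuclei in every library was given the same share in each. Sub-clusters 5 and 6 drop out there, with 37.6% of the CA3 UMIs of APPNL-G-F mice with exercise. Htr2c over the other 10 was 96.4 CPM against 198 in APPNL-G-F mice (log2 -1.04) and 98.9 against 141 in WT mice (log2 -0.51), so the WT difference went below 1.5-fold. With the same 10 at each library's own shares the ratios were -0.69 and -1.07. Median depth of CA3 nuclei was 13418 UMIs in APPNL-G-F mice with exercise, 9911 in APPNL-G-F mice without exercise, 15277 in WT mice with exercise and 12404.5 in WT mice without exercise; at 1500 UMIs per nucleus the ratios were -1.48 and -0.69. Ttr, an abundant transcript of the choroid plexus, gave 28 UMIs in APPNL-G-F mice with exercise, 11132 in APPNL-G-F mice without exercise, 170 in WT mice with exercise and 437 in WT mice without exercise. It was thus higher in the library without exercise of each genotype, as Htr2c in CA3 neurons was, and it was seen in 0.452%, 23.5%, 0.485% and 1.80% of CA3 nuclei. In CA3 nuclei without a Ttr UMI, Htr2c was at 77.1 against 175 CPM in APPNL-G-F mice (log2 -1.18, -1.31 to -1.04) and at 68.1 against 138 in WT mice (log2 -1.02, -1.15 to -0.89). The ratios for exercise in APPNL-G-F mice were -0.72 in CA1 and -0.63 in inhibitory neurons without a Ttr UMI. A CA1 sub-cluster led by Ttr held 31.1% of CA1 nuclei in APPNL-G-F mice without exercise and at most 1.24% in any other library. Drd1 in deep-layer neurons at equal shares of sub-clusters was at -1.07 in APPNL-G-F mice, on 10 against 20 UMIs. In WT mice it was at -0.51, under 1.5-fold, on 9 against 17 UMIs. At own shares of the same 6 of 10 sub-clusters the ratios were -1.23 and -0.98. Sub-cluster 8, where Drd1 was highest, had 6 nuclei in APPNL-G-F mice with exercise and was left out. It held 3.49%, 9.68%, 5.24% and 10.3% of deep-layer nuclei, in the order of the groups. Its part in the Drd1 values was not tested. Granule markers in the deep-layer class summed to 678, 430, 889 and 447 CPM, higher in the exercise library of each genotype; their part in the Drd1 values was not tested.

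**Figure D5:**
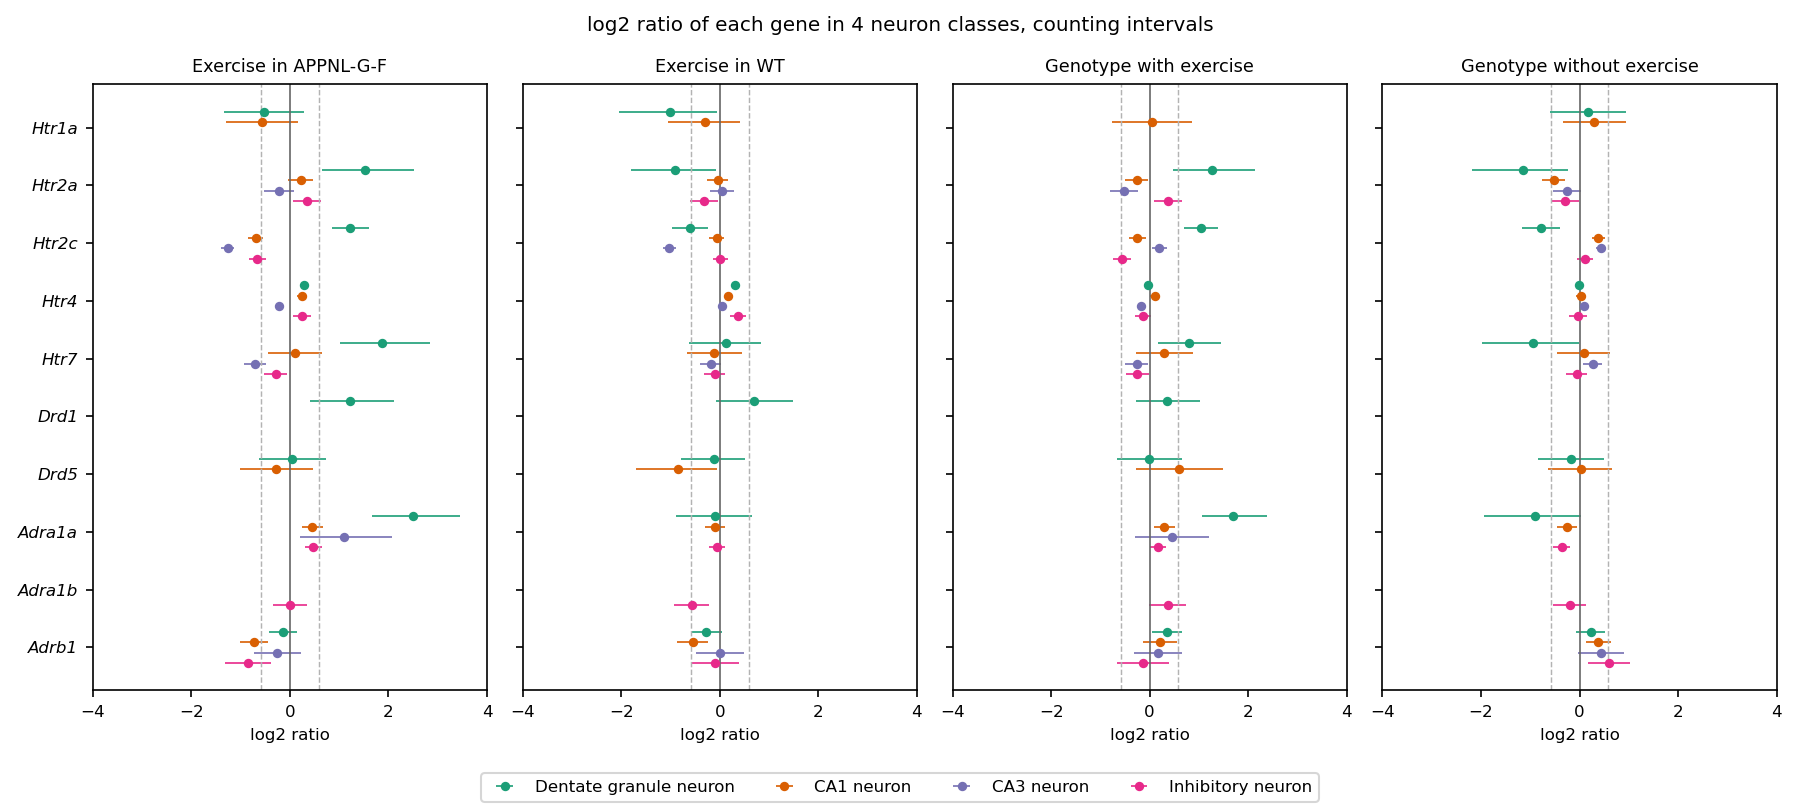
log2 ratios of the receptor genes with at least 50 UMIs in 4 neuron classes, one panel per comparison (exercise over none, APPNL-G-F over WT), with 95% counting intervals and dashed lines at 1.5-fold. Htr2c in CA3 neurons lies below -1 for exercise in both genotypes, and the low-level genes of granule neurons spread most.

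Genotype was compared at each level of exercise; these comparisons share libraries with those of exercise, so a value of 1 library enters several of them. Without exercise, 5 of 28 pairs (17.9%) passed 1.5-fold, 1 higher and 4 lower in APPNL-G-F mice, beside 22.7% of all pairs (12.6% higher and 10.1% lower). The 4 lower ones were all low-level genes of granule neurons. Htr2a was at 1.04 CPM in APPNL-G-F mice against 2.32 in WT mice (log2 -1.16), Htr7 at 1.04 against 2.01 (-0.95), Adra1a at 1.04 against 1.96 (-0.91) and Htr2c at 6.25 against 10.7 (-0.78). In granule nuclei without a UMI of markers of other neurons the Adra1a ratio was -0.06. Adrb1 in inhibitory neurons was at 18.8 against 12.4 CPM (log2 0.60, 0.17 to 1.03). Htr2c in CA3 neurons was at 186 against 138 CPM, a log2 ratio of 0.44 (0.34 to 0.54), and Htr4 differed by between -0.03 and 0.10 in the 4 classes. The median ratio was -0.47 for granule, 0.05 for CA1, 0.26 for CA3 and -0.06 for inhibitory neurons, beside -0.03, -0.07, -0.13 and -0.04 over all genes.

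With exercise, 5 of 29 pairs (17.2%) passed 1.5-fold, all 5 higher in APPNL-G-F mice, beside 31.0% of all pairs (24.9% higher and 6.08% lower). In granule neurons Adra1a was at 5.90 CPM in APPNL-G-F mice against 1.83 in WT mice (log2 1.69, 1.06 to 2.38), Htr2a at 3.00 against 1.24 (1.27), Htr2c at 14.5 against 7.09 (1.04) and Htr7 at 3.80 against 2.19 (0.79). Without markers of other neurons the Htr7 ratio was 0.11, under 1.5-fold. Drd5 in CA1 neurons was at 2.50 against 1.66 CPM (log2 0.59, -0.27 to 1.49). Over the 6 of 9 sub-clusters used for equal shares it was under 1.5-fold, on 11 against 12 UMIs. The ratio there was 0.36 at own and 0.55 at equal shares. Htr2c in CGE neurons was lower, at 156 against 267 CPM (log2 -0.78, -1.02 to -0.54), while in CA3 neurons it was at 77.6 against 67.8 (log2 0.19, 0.04 to 0.35). The medians were 0.58, 0.15, -0.00 and -0.14 in granule, CA1, CA3 and inhibitory neurons, beside 0.20, 0.28, 0.25 and 0.24 over all genes.

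Outside neurons, Htr4 differed widely between libraries. In oligodendrocytes it had 99.3 CPM (421 UMIs) in APPNL-G-F mice with exercise, 14.9 (33 UMIs) in APPNL-G-F mice without exercise, 24.9 (32 UMIs) in WT mice with exercise and 35.3 (97 UMIs) in WT mice without exercise. The first library was the high one, and its oligodendrocytes were also the deepest, at a median of 2826 UMIs against 1352, 1738 and 1792; they lay mostly in one cluster and those of APPNL-G-F mice without exercise mostly in another. Granule markers in the same nuclei summed to 3590, 2869, 4053 and 3756 CPM, with their highest value in WT mice with exercise, and CA1 markers to 361, 210, 211 and 255 CPM, with theirs in APPNL-G-F mice with exercise. Per 1000 granule marker UMIs, oligodendrocytes had 27.7, 5.19, 6.16 and 9.39 Htr4 UMIs. The part of markers and depth in the Htr4 values was not tested. In oligodendrocyte precursors Htr4 was at 70.4 CPM (61 UMIs) in APPNL-G-F mice with exercise, 11.3 (4 UMIs) in APPNL-G-F mice without exercise, 121 (59 UMIs) in WT mice with exercise and 31.2 (19 UMIs) in WT mice without exercise, higher in the exercise library of each genotype. Granule markers there summed to 1268, 1001, 1850 and 890 CPM in the same order, and their part was not tested. Htr2c in oligodendrocytes was at 32.1, 14.9, 8.58 and 17.1 CPM. In microglia, of which WT mice with exercise gave only 24 nuclei, no receptor but Htr4 reached 50 UMIs in a comparison.

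Of 18 further monoamine receptor genes, Htr1f gave the most UMIs, 30677. This Gi-coupled serotonin receptor stood at 419 ± 90.5 CPM in deep-layer neurons, 243 ± 32.9 in MGE inhibitory neurons, 185 ± 14.7 in CA3 neurons and 164 ± 19.9 in CA1 neurons. Htr3a, a subunit of the serotonin-gated channel, was at 36.0 ± 9.48 CPM in CGE inhibitory neurons. Htr5b was at 8.91 ± 1.15 in CA1 neurons, Adra1d at 5.51 ± 1.90 in CA3 neurons and Drd2 at 5.41 ± 1.98 in MGE inhibitory neurons. Htr1b was at 5.13 ± 0.696 in subicular neurons, and none of the other 12 had a class with both 50 UMIs and a mean of 5 CPM.

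A list of downstream genes held those for receptor desensitisation and G protein regulation, together with the RNA-editing genes Adar and Adarb1. Its 14 genes, with 13 or 14 measured, differed most in the comparison of exercise with none in APPNL-G-F mice. In granule, CA1, CA3 and inhibitory neurons 8, 9, 8 and 8 of them were past 1.5-fold higher and 0 lower, with medians of 0.60, 0.76, 0.71 and 0.73, where 22.4%, 26.1%, 27.2% and 23.6% of all genes were past it higher, and 17.0% of all gene and class pairs of the 4 classes were past it lower. Grk2, a kinase that silences active receptors, was at 34.9 CPM with exercise against 7.80 without in inhibitory neurons (log2 2.16, 1.67 to 2.68). Of 28 G proteins and effector enzymes, 27 were measured, and 13, 11, 13 and 10 were higher and 2, 2, 3 and 2 lower. Pde4b, a phosphodiesterase that breaks down cyclic AMP, was at 95.4 against 24.0 CPM in granule neurons (log2 1.99, 1.82 to 2.17). Of 16 genes for monoamine synthesis, transport and breakdown, 3 or 4 were measured in each class.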

How the data were processed

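Raw UMI counts per gene and nucleus from 4 libraries of 10x Genomics 3' snRNA-seq were used as deposited by the authors. Cell Ranger 5.0.1 made the matrices per the file headers, while version 3.1.0 and mm10 stand in the submitters' processing notes. The use of introns and strand in counting is not given in these sources. The open-chromatin assay named in the design is not used here. Nuclei with at least 500 genes, 1000 UMIs and under 5% mitochondrial UMIs were kept, and those with the highest doublet scores (against 2 simulated pairs per nucleus; 0.8% per 1000 nuclei) were left out; between 35.7% and 61.2% of simulated pairs lay above the limit. Clustering (Python 3.11.15, scanpy 1.11.5) used 2000 variable genes without monoamine receptors, 30 principal components, 15 neighbours and Leiden resolution 1.0, giving 31 clusters, of which 7 stayed unnamed and held between 4.53% and 17.4% of each member's UMIs. Classes with at least 30 nuclei in 3 or more libraries are shown. Ratios are of class CPM between 2 libraries, given from 50 UMIs over both, with an exact conditional binomial interval. In subsets of nuclei or sub-clusters some rest on fewer UMIs, which are not printed for every ratio. Levels have exact Poisson and shares exact Clopper-Pearson intervals. All intervals are at 95%. Counting error is all they cover. The means ± SD run over the 4 libraries, which differ in group. All 10 members are named in the classes compared, and of the other lists the genes with the most extreme ratios from 100 UMIs. Alternatives included edgeR 4.0.16 TMM factors. The ratio calculation was checked on simulated data. The members and lists were chosen with earlier results of these data known. Of the 32285 gene identifiers, 32158 were in GENCODE M21 (GRCm38).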

Additional observations from a re-analysis of the deposited data

Results flagged for a closer look

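Several receptor genes were higher in one comparison and lower in its counterpart; the differences between the comparisons were not tested, and each rests on 1 library per group. For exercise against none, the log2 ratio in granule neurons was 1.53 in APPNL-G-F mice and -0.90 in WT mice for Htr2a, and 1.22 and -0.60 for Htr2c. In oligodendrocytes Htr2c was at 1.11 in APPNL-G-F mice and -0.99 in WT mice. For APPNL-G-F against WT in granule neurons, the log2 ratio with exercise and without it was 1.27 and -1.16 for Htr2a, 1.04 and -0.78 for Htr2c, 0.79 and -0.95 for Htr7, and 1.69 and -0.91 for Adra1a. In oligodendrocytes Htr4 was at 1.99 with exercise and -1.24 without. The granule levels of Htr2a, Htr2c, Htr7 and Adra1a could not be told from background by their share of nuclei with a UMI at 1500 UMIs per nucleus. In granule nuclei without markers of other neurons Htr2a for exercise in WT mice (-0.15), Htr7 for genotype with exercise (0.11) and Adra1a for genotype without it (-0.06) were under 1.5-fold. Both APPNL-G-F libraries enter each of these pairs of comparisons, and many of the granule and oligodendrocyte nuclei of each lay in a cluster with few nuclei of the other. The largest granule cluster of APPNL-G-F mice without exercise, which gave 1689 of its 2274 nuclei, also held nuclei of WT mice.

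Htr2c was also seen in a few nuclei with choroid plexus markers. Nuclei with at least 3 of 5 choroid plexus markers, a rule set after seeing the data, numbered 1 in APPNL-G-F mice with exercise, 16 in APPNL-G-F mice without exercise, 4 in WT mice with exercise and 1 in WT mice without exercise. The 16 nuclei had 394 Htr2c UMIs, or 1994.2 CPM (95% counting interval 1802 to 2201), and 11 of them lay in unnamed clusters. Of the 16, 9 had an Htr2c UMI, and 1 nucleus held 110 of the 394. The other libraries had 3 UMIs in 1 nucleus (65.3 CPM) in APPNL-G-F mice with exercise, 14 in 4 nuclei (128 CPM) in WT mice with exercise and 45 in 1 nucleus (8155 CPM) in WT mice without exercise.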

How the results depend on the processing

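No paired analysis was possible because each group has 1 library. With mitochondrial and the 50 highest genes left out of the total, mean levels in the highest class were 3.68 CPM for Htr1a, 75.6 for Htr2a, 497 for Htr2c, 484 for Htr4, 137 for Htr7, 3.42 for Drd5, 303 for Adra1a and 72.1 for Adra1b. At 1500 UMIs per nucleus Htr7 was at 125 and Drd5 at 2.32, and with each nucleus weighted equally Adra1b was at 71.7. The median ratio of the receptors at 1500 UMIs was 0.24 in granule and -0.92 in CA3 neurons for exercise in APPNL-G-F mice, and in CA3 neurons -0.31 for genotype with exercise and 0.59 without. The CA3 median for genotype with exercise was 0.30 at Leiden resolution 2.0 and 0.19 from 10 UMIs. The granule median for exercise in APPNL-G-F mice was 0.29 from 200 UMIs. TMM and median-of-ratios factors gave -0.36 and -0.37 in inhibitory neurons for genotype with exercise, and 0.18 and 0.19 in CA3 neurons for exercise in WT mice. Pairs past 1.5-fold for exercise in APPNL-G-F mice (12) numbered 7 at 1500 UMIs and 6 from 200 UMIs, and for exercise in WT mice (6) they numbered 3, 2 and, from 10 UMIs, 11. For genotype with exercise (5) they numbered 1 at 1500 UMIs, 1 from 200 UMIs, 11 from 10 UMIs and 9 with nuclei of at least 1200 UMIs; without exercise (5) the counts were 2, 1, 9 and 3. Among single ratios past 1.5-fold, those that turned sign were Adra1a in CA3 neurons for exercise in APPNL-G-F mice (-0.17 with no doublets left out, -0.35 at 1500 UMIs), Htr2a in deep-layer neurons for genotype without exercise (0.0066 at equal shares of sub-clusters) and, at 1500 UMIs, Adrb1 in deep-layer neurons for genotype without exercise (-0.52), Htr2a in CGE neurons for exercise in APPNL-G-F mice (-0.14) and Adra1b in CGE neurons for exercise in WT mice (0.036). Of 28 pairs past 1.5-fold in the 4 neuron classes, 27 kept their sign and 16 stayed past it under all alternatives chosen at the start. The causes were not tested. The equal-share value of Htr2a in deep-layer neurons leaves out sub-cluster 8, where Htr2a was highest. The subset of granule nuclei without markers of other neurons gave no value for 1 result. Htr1a, Drd1 and Drd5 gave the fewest UMIs of the 10 genes, 429, 477 and 495.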

Other observations

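Among G proteins and effectors, Kcnj3, a subunit of the potassium channel that Gi-coupled receptors open, was at 206 CPM in APPNL-G-F mice with exercise against 433 in APPNL-G-F mice without in CA3 neurons (log2 -1.07, -1.15 to -0.996), and at 293 against 607 in CA1 neurons (log2 -1.05, -1.11 to -0.994). For exercise in WT mice, Rgs14, a regulator of G proteins known from CA2 neurons, was at 9.65 against 22.3 CPM in granule neurons (log2 -1.21, -1.502 to -0.925). Adcy8, an adenylyl cyclase, was at 25.4 against 14.8 CPM in CA3 neurons (log2 0.78, 0.49 to 1.06).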
